A study of Mus musculus with 4 samples.

Results

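Cholesterol synthesis, its control by the transcription factor SREBP2 and the handling of sterols inside the cell were followed through 28 genes, of 55487 gene identifiers counted, in the livers of PA and wild-type mice. The genes were taken by name as a list: 7 early enzymes that build farnesyl pyrophosphate, the branch enzyme Ggps1, 12 enzymes that make squalene and turn it into cholesterol, 4 genes of SREBP2 control, and 4 genes of sterol trafficking and storage. All 28 matched a gene identifier and all passed the filter on low counts. The list is not every gene of the pathway.

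Liver RNA came from 2 PA mice and 2 wild-type (WT) mice, all female, 11 weeks old, on the FVB background and fed standard chow freely. The labels describe the PA mice as a hypomorphic Pcca-/- line with the A138T change. In this line, as is known of it, the mouse gene is disrupted and a mutant transgene leaves some propionyl-CoA carboxylase activity; the enzyme sits in mitochondria and disposes of propionyl-CoA. The replicates are called biological in the design text, and the hour of collection is not given in the sources used here.

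Hepatocytes make cholesterol from acetyl-CoA in the cytosol and the endoplasmic reticulum. When sterols in the endoplasmic reticulum run low, SCAP carries SREBP2 to the Golgi, where it is cut, and the freed fragment turns on most genes of the pathway, together with its own gene and Insig1. INSIG proteins hold SCAP back when sterols are plentiful. Cholesterol from lysosomes is released through NPC1 and NPC2, moved between membranes by carriers such as STARD4, and stored as ester by the hepatocyte enzyme encoded by Soat2.

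**Figure D1:**
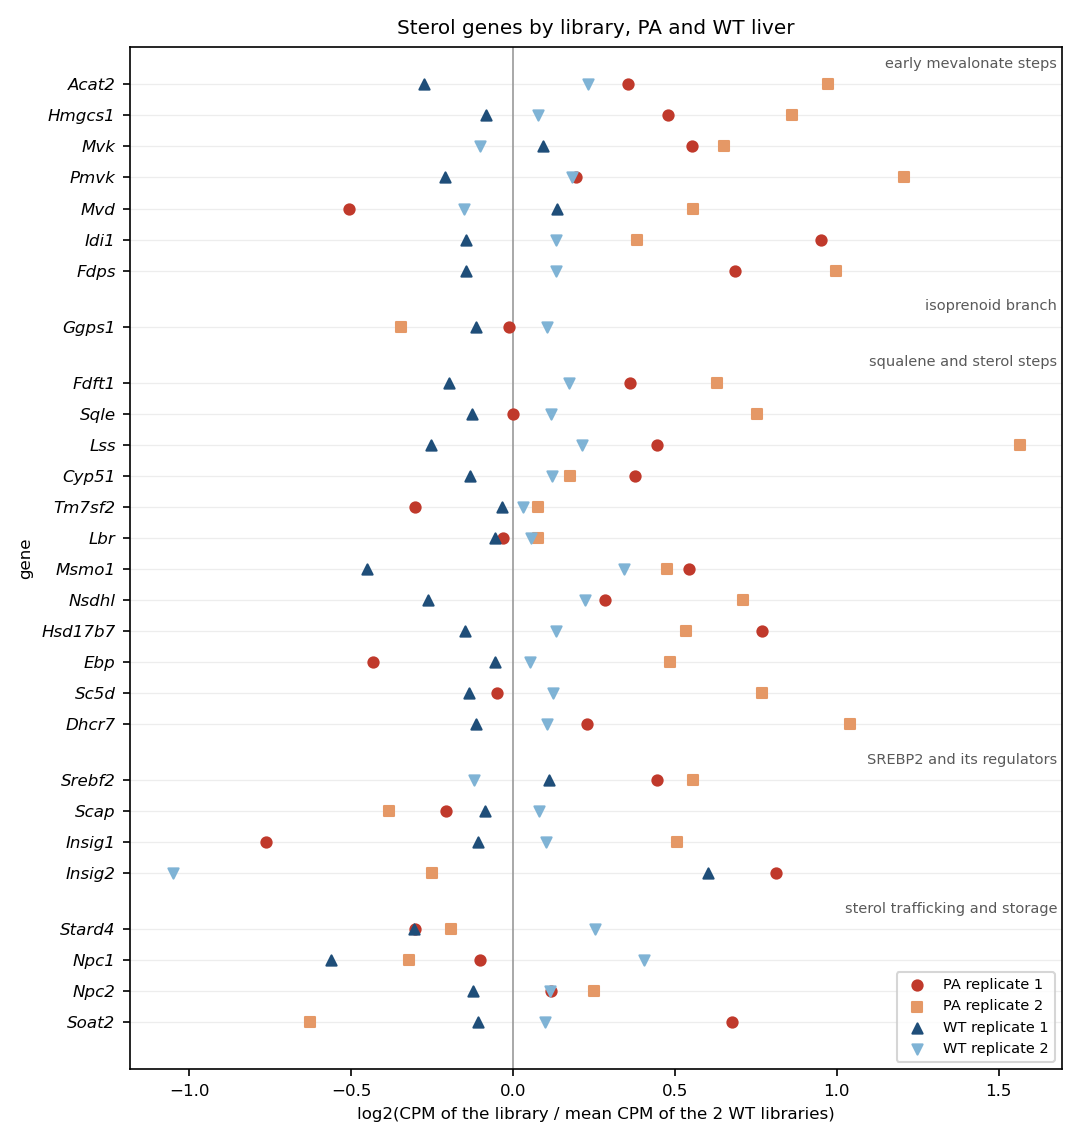
Each point is 1 library and gives the log2 ratio of its CPM (counts set to a common library total with TMM scaling) to the mean of the 2 WT libraries, for the 28 sterol genes grouped by role. Both PA points lie right of both WT points for 6 of the 7 early genes and 7 of the 12 squalene and sterol genes. Of all genes tested, 21.3% have both PA libraries above both WT libraries. For Insig1, Insig2 and Soat2 the PA points lie far apart.

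SREBP2 acts near transcription starts together with the factors NF-Y and Sp1, so the bases before the start are shown for 4 members. They are Hmgcs1, the 1 member whose window holds the longer sterol-element motif searched; Mvk, which has the most CCAAT boxes of the 4 shown; Lss, which has the largest fitted difference between genotypes; and Insig1, the feedback gene whose PA libraries were far apart. Each line gives the 250 bases before the start on the plus strand of GRCm38.p6, credited to RefSeq. Capitals mark CCAAT, the core of an NF-Y site, and CACNCCAC, a short form of the sterol regulatory element, on either strand. These motifs read ATTGG and GTGGNGTG when they lie on the opposite strand.
Hmgcs1, chr13:119690101-119690350: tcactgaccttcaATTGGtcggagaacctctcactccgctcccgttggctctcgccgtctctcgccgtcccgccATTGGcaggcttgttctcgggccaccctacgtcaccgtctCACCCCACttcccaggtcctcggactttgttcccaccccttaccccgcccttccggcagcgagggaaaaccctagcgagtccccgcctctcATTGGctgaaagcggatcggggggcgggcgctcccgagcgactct
Mvk, chr5:114444019-114444268: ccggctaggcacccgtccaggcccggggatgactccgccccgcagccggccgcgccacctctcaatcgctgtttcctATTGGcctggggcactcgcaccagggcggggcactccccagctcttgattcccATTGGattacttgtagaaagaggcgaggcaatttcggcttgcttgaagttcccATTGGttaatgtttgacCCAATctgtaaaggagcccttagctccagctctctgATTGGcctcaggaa
Lss, chr10:76531355-76531604: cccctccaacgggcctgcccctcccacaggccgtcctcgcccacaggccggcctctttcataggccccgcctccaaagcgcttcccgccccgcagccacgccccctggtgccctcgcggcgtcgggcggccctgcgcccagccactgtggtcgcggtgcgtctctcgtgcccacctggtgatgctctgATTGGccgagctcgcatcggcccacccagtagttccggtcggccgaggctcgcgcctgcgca
Insig1, chr5:28071162-28071411: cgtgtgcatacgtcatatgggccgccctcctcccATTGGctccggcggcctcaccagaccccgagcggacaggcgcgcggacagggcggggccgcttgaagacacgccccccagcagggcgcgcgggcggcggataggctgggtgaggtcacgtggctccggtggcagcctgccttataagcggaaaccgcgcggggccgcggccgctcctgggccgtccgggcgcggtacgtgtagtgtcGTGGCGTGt

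The 4 stretches held 3 CCAAT boxes in Hmgcs1, 5 in Mvk, 1 in Lss and 1 in Insig1. The sterol-element letters of Hmgcs1 begin at -136, counted back from the start, and stand between CCAAT boxes at -176 and -45. In Insig1 they begin at -9, on the opposite strand. Promoter windows of 300 bases, 250 before and 50 after a start, matched 22 of the 28 members, with 28 windows in all. Fdft1, Fdps, Npc1, Soat2, Sqle and Stard4 had no window in the table. CCAAT was found in at least 1 window of 20 of the 22 genes, in 71.4% of their windows, against 37.5% of 13161 windows of all genes tested and 37.4% of all 32851 windows. GGGCGG, the core of an Sp1 site, was in 82.1% of the windows of the sterol genes, against 59.2% of windows of tested genes and 35.7% of all windows. CACNCCAC was in 10.7% of them (Acat2, Hmgcs1 and Insig1), against 6.34% and 6.24%, and TCACNCCAC, which contains it, in 3.57% (Hmgcs1), against 1.19% and 1.24%. Base composition was not matched in these shares, and a match of letters is not a bound site.

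Gene counts summed to between 25575016 and 30110400 per library. The PA libraries differed from each other more than the WT libraries did, with a chi-square per degree of freedom over genes of 135 for the PA pair and 46.3 for the WT pair. Mitochondrially encoded genes took 13.6% of counts in PA replicate 1 and 8.98% in PA replicate 2, against 6.90% and 7.38% in the WT libraries. Pcca, the gene altered in PA mice, was at 34.2 and 47.4 CPM in PA, against 60.3 and 58.9 CPM in WT (log2 fold change -0.55, edgeR adjusted p = 0.398). Whether reads of the transgene are counted under Pcca was not tested. Hepatocyte markers were abundant in every library (6 genes, sums of 133792 and 164872 CPM in PA, against 148352 and 161044 CPM in WT), and 3 of the 6 had both PA libraries above both WT libraries. Of 8 macrophage markers, 7 had both PA libraries below both WT libraries (sums of 270 and 391 CPM in PA, against 637 and 540 CPM in WT), and so had 5 of 5 erythroid markers (11.6 and 16.6 CPM, against 91.6 and 47.3 CPM) and 4 of 6 lymphocyte markers (2.19 and 3.35 CPM, against 5.43 and 5.0 CPM). Marker values are CPM of the plain library totals, without TMM scaling. Among all genes tested, both PA libraries lay above both WT libraries for 21.3% and below them for 21.9%, in TMM-scaled CPM. These shares were not computed on the scale of the markers. Fewer cells of a type and less RNA per cell cannot be told apart in bulk tissue. The marker sums were 166 and 168 CPM in PA against 221 and 196 CPM in WT for 6 endothelial genes, 437 and 428 against 428 and 428 CPM for 6 stellate genes, and 29.2 and 32.0 against 35.5 and 48.0 CPM for 5 cholangiocyte genes. Of the cholangiocyte genes 3 had both PA libraries above both WT libraries and 1 had them below, against 21.3% and 21.9% of genes tested on the TMM scale. The 5 pancreas markers summed to 11.2 and 7.64 CPM in PA, against 30.3 and 16.7 CPM in WT, and 3 of them were at 0 in every library. The 4 adipocyte markers summed to 0 in both PA libraries, against 0.101 and 0.0782 CPM in WT, with 2 at 0 in every library. The part of these differences in the results on sterol genes was not tested.

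No sterol gene passed the threshold in the comparison of PA with WT, although most had higher values in PA. Of the 28 genes, 23 had a positive fold change, against 50.6% of the 14411 genes tested, and the median log2 fold change was 0.42, against 0.0049 for all genes tested. Without PA replicate 2, 17 of the 28 were positive, with a median of 0.26. edgeR called 0 of the 28 at an adjusted p of 0.05, a share to be read against 0.812% of all genes tested, and DESeq2 also called 0, against 3.07%. The share called lower was 0.548% and higher 0.264% of all genes tested. With PA replicate 1 left out, 3 of the 28 were called (Pmvk, Lss and Dhcr7), against 2.02% of all genes tested, and 0 were called without PA replicate 2, WT replicate 1 or WT replicate 2, against 3.34%, 1.04% and 1.46%. With no filter on low counts 2 were called (Fdps and Lss), against 3.7% of the 24406 genes tested in that fit. At an unadjusted edgeR p under 0.05, 8 of 28 were higher in PA, 28.6% against 5.88% of all genes tested, and 0 were lower, against 5.93%. Both PA libraries lay above both WT libraries for 15 of the 28 genes, 53.6% against 21.3% of all genes tested, and below them for 1, Scap, against 21.9%. Fold changes below are log2 of PA over WT, with SE for standard error. The members share regulators and libraries, so their counts are not independent observations.

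The early enzymes had the highest median, a log2 fold change of 0.70, with 7 of 7 positive, against 50.6% of all genes tested. Both PA libraries lay above both WT libraries in 6 of 7, against 21.3% of all genes tested. At an unadjusted edgeR p under 0.05, 5 of 7 were higher, against 5.88%. Acat2, the cytosolic thiolase that joins acetyl units, was at 81.6 and 125 CPM in PA, against 52.7 and 74.9 CPM in WT (log2 fold change 0.70, SE 0.29, edgeR adjusted p = 0.403). Hmgcs1, the synthase of the next step (chromosome 13, 119690379 to 119708260, plus strand), was at 562 and 732 CPM in PA, against 381 and 426 CPM in WT (0.68, SE 0.26, edgeR adjusted p = 0.352). In both genes the lower PA library stood above the higher WT library, and PA replicate 2 was the highest of the 4.

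Mvk encodes mevalonate kinase and had close replicates. Its values were 26.6 and 28.5 CPM in PA, against 19.3 and 16.9 CPM in WT (log2 fold change 0.60 with an SE of 0.19, edgeR adjusted p = 0.279). Pmvk, the next kinase, was at 73.2 and 148 CPM in PA, against 55.3 and 72.6 CPM in WT (0.79, SE 0.35, edgeR adjusted p = 0.442). The lower PA value of Pmvk nearly touched the higher WT value, and without PA replicate 1 the fold change was 1.21 (edgeR adjusted p = 0.0354), against 0.19 without PA replicate 2. Mvd, the decarboxylase that yields isopentenyl pyrophosphate, was the early enzyme whose genotypes overlapped, at 24.9 and 51.9 CPM in PA, against 38.8 and 31.8 CPM in WT (0.12, SE 0.34, edgeR adjusted p = 0.934). The PA values of Mvd lay on either side of both WT values.

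Idi1, the isomerase of isopentenyl pyrophosphate, was at 217 and 146 CPM in PA, against 101 and 123 CPM in WT (log2 fold change 0.70, SE 0.27, edgeR adjusted p = 0.363). Here PA replicate 1 was the highest library, unlike in the other early genes. Fdps, the farnesyl pyrophosphate synthase (chromosome 3, 89093588 to 89101959, minus strand), had the smallest p of the 28 genes. It was at 20.1 and 25.0 CPM in PA, against 11.3 and 13.7 CPM in WT (0.85, 95% interval 0.33 to 1.37, SE 0.22, edgeR adjusted p = 0.179). With no filter on low counts its edgeR adjusted p was 0.0301. For Fdps and Idi1 the choice of count matters for the level. The RSEM counts were 20.8 times the STAR counts for Fdps, 3.83 times for Idi1 and 1.27 times for Acat2. RSEM divides multi-mapped reads among genes, and Fdps also overlaps exons of Gm43738 on the same strand; the part of either in these ratios was not tested. The fold changes of these genes in RSEM expected counts were 0.95 for Fdps, 0.65 for Idi1 and 0.71 for Acat2 (edgeR adjusted p = 0.209, 0.453 and 0.413).

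Ggps1, which leads away from sterols to geranylgeranyl pyrophosphate for protein prenylation, was at 11.1 and 8.82 CPM in PA, against 10.4 and 12.1 CPM in WT (log2 fold change -0.17 with an SE of 0.22, edgeR adjusted p = 0.828). Its genotypes overlapped.

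Of the 12 genes from squalene synthesis to cholesterol, 11 had a positive log2 fold change, against 50.6% of all genes tested, with a median of 0.46. Both PA libraries lay above both WT libraries in 7 of them, against 21.3% of all genes tested. At an unadjusted edgeR p under 0.05, 2 were higher, against 5.88%. Without PA replicate 2, 7 of the 12 were positive and the median was 0.26. Lss, the lanosterol synthase that closes the sterol ring (chromosome 10, 76531588 to 76557138, plus strand), had the largest fold change of the 28 genes. Lss was at 118 and 256 CPM in PA, against 72.6 and 100 CPM in WT (log2 fold change 1.11, 95% interval 0.21 to 2.01, SE 0.38, edgeR adjusted p = 0.309). PA replicate 2 stood 2.17 times above PA replicate 1. Without PA replicate 1 the log2 fold change of Lss was 1.57 (edgeR adjusted p = 0.0170), without PA replicate 2 it was 0.44, and with no filter on low counts the adjusted p was 0.00213. Hsd17b7, a sterol ketoreductase, was at 124 and 105 CPM in PA, against 65.6 and 79.8 CPM in WT (0.66, SE 0.22, edgeR adjusted p = 0.294). Its PA libraries were within 1.5 times of each other and clear of both WT libraries.

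Dhcr7, the reductase that yields cholesterol from dehydrocholesterol, was at 82.4 and 145 CPM in PA, against 64.9 and 75.7 CPM in WT (log2 fold change 0.69, SE 0.30, edgeR adjusted p = 0.427; edgeR adjusted p = 0.0417 at a fold change of 1.05 when PA replicate 1 was left out, and 0.611 at 0.23 when PA replicate 2 was). The squalene synthase gene Fdft1 was at 242 and 292 CPM in PA, against 164 and 213 CPM in WT (0.50), and the sterol dehydrogenase gene Nsdhl at 81.0 and 109 CPM, against 55.4 and 77.6 CPM (0.51). Msmo1, the methylsterol monooxygenase, was at 537 and 513 CPM in PA, against 270 and 467 CPM in WT (0.51, SE 0.31). For Msmo1 the WT libraries differed 1.73-fold and the PA libraries hardly at all, and its fold change was 0.16 when WT replicate 1 was left out and 0.97 when WT replicate 2 was. The lanosterol demethylase gene Cyp51 was at 421 and 366 CPM in PA, against 296 and 353 CPM in WT (0.28). Each of these genes had both PA libraries above both WT libraries.

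The genotypes overlapped in the other 5 sterol enzymes. Sqle, the squalene epoxidase and a rate-limiting step of the pathway, was at 134 and 225 CPM in PA, against 122 and 145 CPM in WT (log2 fold change 0.42, SE 0.29). PA replicate 1 lay between the WT libraries in Sqle, and likewise in Sc5d, a sterol desaturase, at 638 and 1127 CPM in PA, against 602 and 720 CPM in WT (0.42). Ebp, a sterol isomerase, was at 102 and 192 CPM in PA, against 132 and 143 CPM in WT (0.10). The sterol reductase genes Tm7sf2 and Lbr, whose products act at the same step, had the lowest fold changes of the sterol enzymes. Tm7sf2 was at 83.2 and 108 CPM in PA, against 100 and 105 CPM in WT (-0.10, SE 0.22, edgeR adjusted p = 0.914). Lbr, which also anchors chromatin to the nuclear envelope, was at 16.0 and 17.3 CPM in PA, against 15.7 and 17.0 CPM in WT (0.03, 95% interval -0.43 to 0.48). These intervals are wide, and do not show that the genes were unchanged.

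**Figure D2:**
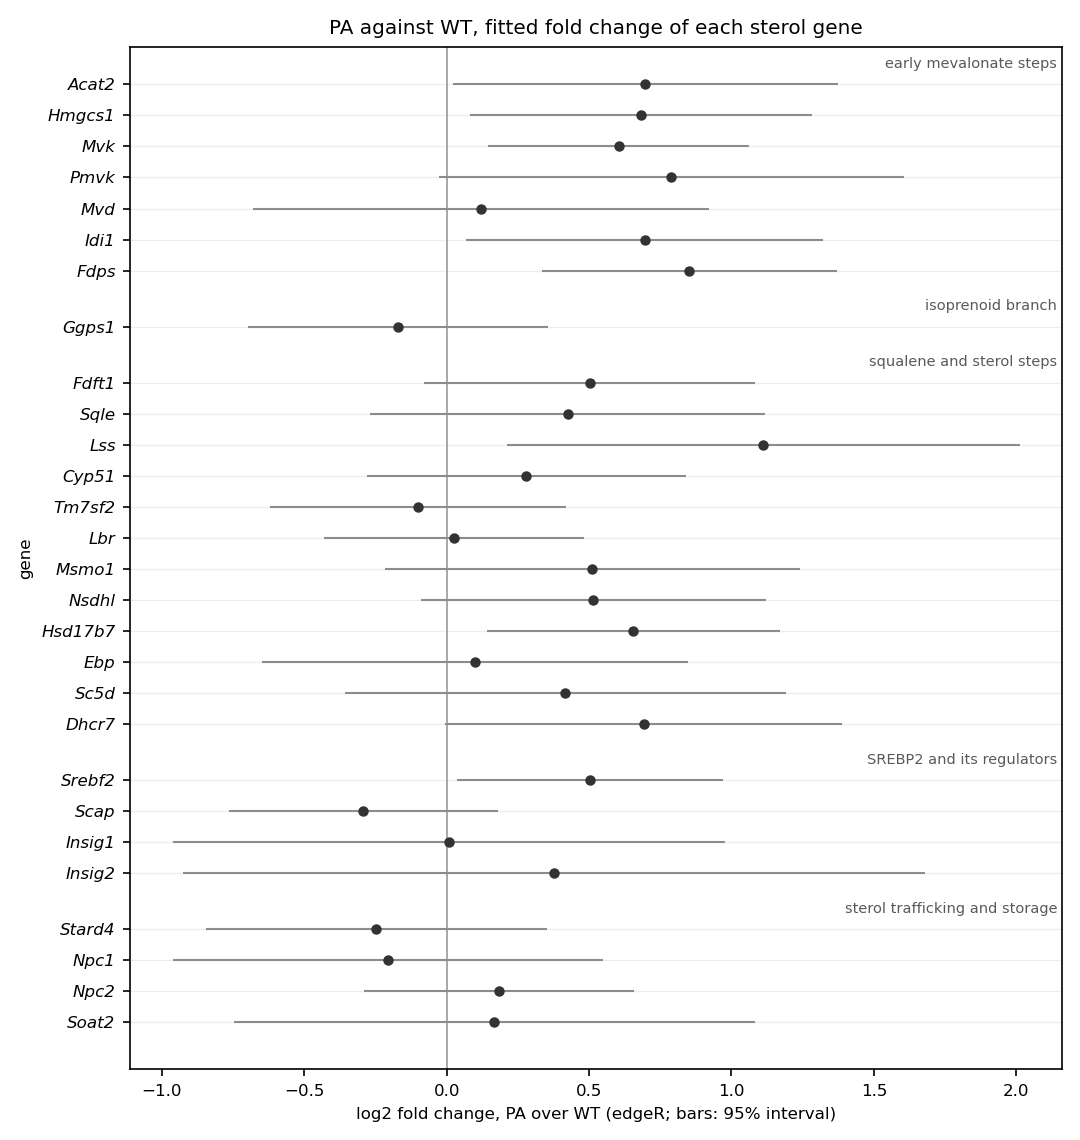
Points are edgeR log2 fold changes, PA over WT, and bars are 95% intervals, for the 28 sterol genes grouped by role (n = 2 mice per genotype). Intervals clear of 0 are seen for 8 genes, 5 of them early enzymes, and none of the 28 passed after adjustment over all genes tested. Of all genes tested, 5.88% were higher and 5.93% lower at an unadjusted edgeR p under 0.05.

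SREBP2 and its regulators had a median log2 fold change of 0.19 over genes that differed widely among themselves. Srebf2, which encodes SREBP2 (chromosome 15, 82147181 to 82205379, plus strand), was at 67.4 and 72.8 CPM in PA, against 53.5 and 45.5 CPM in WT (log2 fold change 0.50, SE 0.20, edgeR adjusted p = 0.383). Its CPM values were close within each genotype and did not overlap between them. In deposited TPM the genotypes of Srebf2 overlapped, at 15.7 and 19.5 TPM in PA, against 16.1 and 12.5 TPM in WT. Scap, the escort of SREBP2, was at 70.9 and 62.7 CPM in PA, against 77.1 and 86.5 CPM in WT (-0.29, SE 0.20, edgeR adjusted p = 0.637), the only one of the 28 genes with both PA libraries below both WT libraries. A transcript level does not measure the cut, active form of SREBP2.

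Insig1 and Insig2, the paired inhibitors, varied more between mice of a genotype than between genotypes. Insig1 (chromosome 5, 28071363 to 28078662, plus strand), itself a target of SREBP2, was at 439 and 1059 CPM in PA, against 691 and 798 CPM in WT (log2 fold change 0.0086, 95% interval -0.96 to 0.98, edgeR adjusted p = 0.997). PA replicate 1 had the lowest and PA replicate 2 the highest value of the 4 libraries, 2.41-fold apart. Insig2 (chromosome 1, 121304353 to 121332589, minus strand) was at 319 and 153 CPM in PA, against 275 and 87.5 CPM in WT (0.38, 95% interval -0.93 to 1.68). The WT libraries of Insig2 were 3.15-fold apart and the PA libraries 2.09-fold, in a gene whose liver transcript is known in mice to be raised by fasting and lowered by insulin. Per transcript length, the ratio of Insig1 to Insig2 in TPM was 0.972 and 5.91 in PA, against 1.81 and 6.10 in WT, so replicate 1 had the lower ratio in each genotype.

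**Figure D3:**
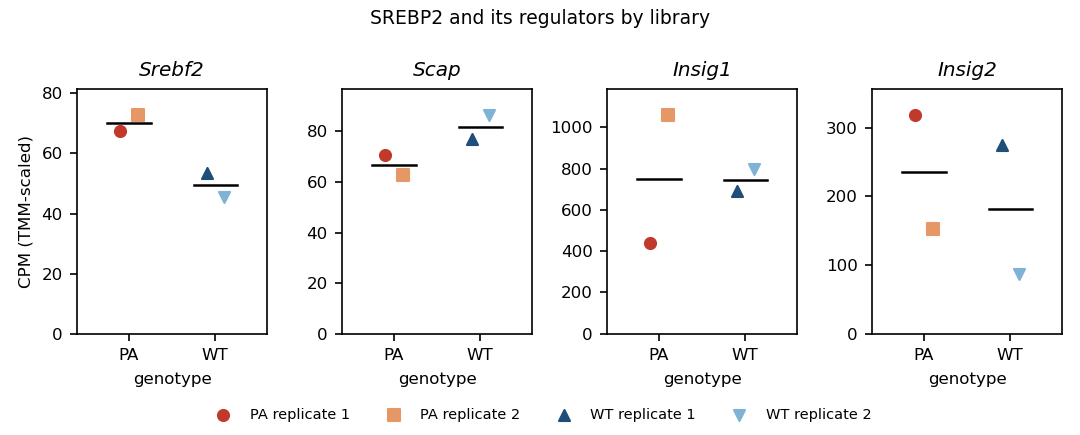
Points are TMM-scaled CPM of Srebf2, Scap, Insig1 and Insig2 in the 2 PA and 2 WT libraries, and horizontal lines are genotype means. The genotypes are separate for Srebf2 and Scap and interleaved for Insig1 and Insig2.

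The trafficking and storage genes had a median log2 fold change of -0.020, with 2 positive and 2 negative. Stard4, the cytosolic sterol carrier, was at 127 and 138 CPM in PA, against 127 and 187 CPM in WT (-0.25, SE 0.25, edgeR adjusted p = 0.772). Npc1, the lysosomal membrane transporter, was at 64.2 and 55.2 CPM in PA, against 46.6 and 91.2 CPM in WT (-0.21), with both PA libraries between the WT libraries. Npc2, its soluble partner, was at 69.3 and 76.0 CPM in PA, against 58.7 and 69.2 CPM in WT (0.18, SE 0.20, edgeR adjusted p = 0.784), without overlap but with PA replicate 1 and WT replicate 2 nearly equal. Soat2, the cholesterol esterifying enzyme, was at 60.7 and 24.6 CPM in PA, against 35.2 and 40.7 CPM in WT (0.17, SE 0.39). The PA values of Soat2 were the highest and the lowest of the 4 libraries, and the order of the PA libraries was the reverse of that in Insig1.

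The 2 PA livers did not carry the pattern equally. PA replicate 2 exceeded both WT libraries in 22 of the 28 genes, against 38% of all genes tested, and PA replicate 1 did so in 17, against 38.5%. PA replicate 2 was at least 1.5 times PA replicate 1 in 9 genes, against 12.6% of all genes tested: Insig1, Lss, Mvd, Pmvk, Ebp, Sc5d, Dhcr7, Sqle and Acat2. The reverse held for Insig2 and Soat2, against 2221 of the 14411 genes tested. The median log2 ratio to the WT mean was 0.48 in PA replicate 1 and 0.86 in PA replicate 2 for the early enzymes, and 0.26 and 0.58 for the later ones. The WT livers differed too, with WT replicate 2 above WT replicate 1 in 24 of the 28 genes, against 49.9% of all genes tested. The WT libraries were 1.5 times or more apart only in Msmo1, Npc1 and Insig2, against 15.7% of all genes tested. In Insig2 the higher was WT replicate 1. The early and later enzymes had overlapping ranges of fold change, 0.12 to 0.85 and -0.10 to 1.11, and the difference between the 2 groups of genes was not tested.

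Levels of different genes were compared in TPM, which is scaled by transcript length. The highest means in PA were those of Fdps at 494 ± 185 TPM, Sc5d at 416 ± 214 TPM, Insig1 at 356 ± 250 TPM and Msmo1 at 324 ± 42.1 TPM, against 292 ± 3.68, 345 ± 32.6, 397 ± 22.5 and 267 ± 89.7 TPM in WT (SD, n = 2 each). Neighbours in this order overlapped in PA, while the lower PA value of Fdps, 363 TPM, was above the higher PA value of Msmo1, 353 TPM. Idi1 and Hmgcs1 followed in both genotypes, and Insig2 was next. The lowest were Lbr at 4.88 ± 0.940 TPM in PA and 5.38 ± 0.0212 TPM in WT, and Ggps1 at 5.57 ± 0.0990 TPM in PA and 6.33 ± 0.834 TPM in WT. Srebf2 averaged 17.6 TPM in PA and 14.3 TPM in WT, and Scap 17.4 TPM in PA and 25.8 TPM in WT, so that both stood in the lower part of the order.

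**Figure D4:**
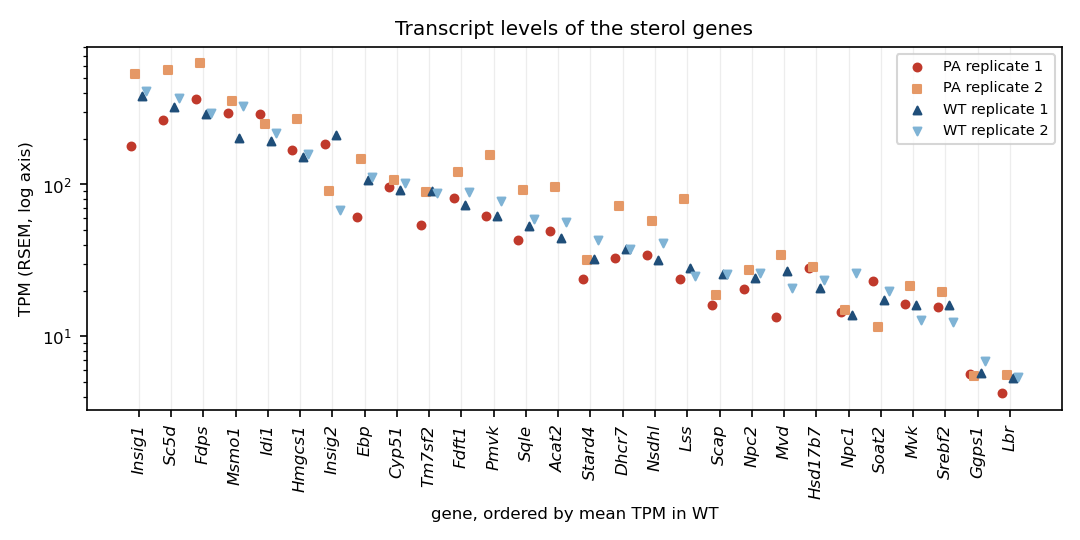
Points are deposited TPM per library on a log axis for the 28 sterol genes, ordered by their mean in WT. Levels run from about 5 TPM for Lbr to 397 TPM for Insig1 in the WT means, and PA replicate 1 lies lower relative to WT than on the CPM scale.

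The scale changed how PA replicate 1 compared with WT. In deposited TPM, the early enzymes summed to 963 and 1455 TPM in PA, against 782 and 840 TPM in WT, and the later ones to 1019 and 1720 TPM in PA, against 1063 and 1281 TPM in WT. On this scale PA replicate 1 was below both WT libraries for the later sum, and 5 of the 28 genes had both PA libraries above both WT libraries, against 7.67% of all genes tested. These were 4 early enzymes and 1 later one. Ggps1, Scap and Stard4 had both PA libraries below both WT libraries in deposited TPM, 3 of 28 against 36% of all genes tested. TPM is a share of all transcripts, those of mitochondrial genes included. With these genes removed and TPM rescaled, the later sums were 1285 and 2074 TPM in PA, against 1189 and 1450.9 TPM in WT. Both PA libraries then lay above both WT libraries for 8 of 28 genes, against 12.8% of all genes tested. They lay below for 1 of the 28, and the share of all genes tested below was not computed. The early sums after rescaling were 1214 and 1755 TPM in PA, against 875 and 952 TPM in WT. Both PA libraries thus exceeded both WT libraries in the early sum in either form of TPM. In PA replicate 1 the largest parts of the deposited early sum were Fdps and Idi1, at 363 and 291 TPM. Their WT values were 289 and 294 TPM for Fdps and 193 and 220 TPM for Idi1. Their RSEM counts were 20.8 and 3.83 times the STAR counts. PA replicate 1 was above both WT libraries in 4 of the 7 early enzymes in deposited TPM. Besides Fdps and Idi1 these were Hmgcs1, at 167 TPM against 151 and 158 TPM in WT, and Mvk, at 16.4 against 16.1 and 12.9 TPM. Acat2, at 49.5 against 44.2 and 57.0 TPM, and Pmvk, at 61.70 against 61.68 and 77.55 TPM, lay between the WT libraries. Mvd was lower, at 13.4 against 27.2 and 20.9 TPM. The excess of PA replicate 1 in the deposited early sum thus lay mainly in Fdps and Idi1.

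Other genes of sterol and isoprenoid metabolism were spread about evenly around 0. Of 54 such genes in 6 lists, 53 were tested, edgeR called 0, against 0.812% of all genes tested, and DESeq2 called 1 (Fabp5, adjusted p = 0.015), against 3.07%. In edgeR the median log2 fold change was -0.011, with 26 positive and 27 negative. At an unadjusted edgeR p under 0.05 stood 1 higher and 1 lower gene, against 5.88% and 5.93% of all genes tested. Both PA libraries lay above both WT libraries for 9 genes, 17.0% against 21.3% of all genes tested. They lay below for 10 genes, against 21.9%.

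Among 10 other genes that SREBP factors activate, 5 were positive and the median was 0.017. Lpin1, a phosphatidate phosphatase, was at 107 and 111 CPM in PA, against 66.7 and 64.3 CPM in WT (log2 fold change 0.73, SE 0.20, edgeR adjusted p = 0.188). Fabp5, a fatty acid binding protein, was at 30.1 and 76.1 CPM in PA, against 193 and 113 CPM in WT (-1.53, SE 0.46, edgeR adjusted p = 0.247). The edgeR adjusted p of Fabp5 was 7.7e-07 with no filter on low counts and 0.0149 without PA replicate 2. Tmem97, a sterol-regulated membrane protein, was at 88.7 and 107 CPM in PA, against 42.2 and 82.2 CPM in WT (0.65, edgeR adjusted p = 0.501). PA replicate 2 was above PA replicate 1 in 10 of these 10 genes, against 49.8% of all genes tested, most widely in Aacs, which activates acetoacetate for lipid synthesis, at 37.1 and 207 CPM in PA, against 117 and 134 CPM in WT. Its fold change was -0.038 with both PA libraries and -1.76 without PA replicate 2 (edgeR adjusted p = 0.00761), and that of Acss2, an acetyl-CoA synthetase, was 0.64 with both and 1.2 without PA replicate 1 (edgeR adjusted p = 0.0237). Mmab, a cobalamin enzyme gene known to share a promoter region with Mvk, was at 39.9 and 46.3 CPM in PA, against 40.3 and 35.1 CPM in WT (0.19, edgeR adjusted p = 0.769).

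The machinery that cuts SREBP and degrades sterol-sensing proteins had a median log2 fold change of -0.042 over 10 genes. Mbtps1, the protease that makes the first cut in SREBP, was at 33.3 and 33.0 CPM in PA, against 40.5 and 42.7 CPM in WT (-0.33, edgeR adjusted p = 0.55), and Sec24a, a coat protein of the vesicles that carry SCAP, had 0.35 (edgeR adjusted p = 0.637). The 8 oxysterol receptor and efflux genes had a median of 0.027, led by the exporter gene Abcg1 at 6.56 and 5.32 CPM in PA, against 4.37 and 3.81 CPM in WT (0.53, edgeR adjusted p = 0.478). Next by p were Nr1h3, an oxysterol receptor (-0.27), and Apoe, a lipoprotein component (0.35). Of 13 tested transport, ester and hydrolysis genes, 9 were negative, with a median of -0.044. Nceh1, a cholesterol ester hydrolase, was at 32.4 and 32.6 CPM in PA, against 39.4 and 51.0 CPM in WT (-0.48, edgeR adjusted p = 0.432), and Scarb1, the receptor for high-density lipoprotein, was at 118 and 107 CPM in PA, against 88.1 and 82.7 CPM in WT (0.39, edgeR adjusted p = 0.515). Stard5, a sterol carrier, had 0.32. The 8 non-sterol isoprenoid enzymes had a median of 0.022, led by Coq2 (0.39) and Pdss1 (0.45) of ubiquinone synthesis and Fnta (-0.23), a subunit of the prenyl transferases. The 4 electron donors of the sterol oxygenases had a median of 0.091, with Cyb5b at 0.17, Cyb5a at 0.18 and Cyb5r3 at -0.17.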

How the data were processed

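Polyadenylated liver RNA of 2 PA and 2 WT mice was measured, with groups and replicate numbers from the sample titles. The authors deposited raw read counts per gene from STAR 2.7.6a, on GRCm38, per the submitters' processing notes. The authors also deposited RSEM 1.3.3 expected count and TPM values, per the file headers and those notes. No source used here gives the annotation release. In the STAR counts, reads with several mapping places are absent. The opposite-strand column held 97.0 to 97.1% of stranded counts in every library and was used. The summary lines that name no gene (28.1 to 34.3% of reads) were left out. GENCODE M21 matched 55141 of 55487 identifiers.

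The main test was the edgeR 4.0.16 quasi-likelihood test in R 4.3.3 with TMM, filterByExpr, a model of genotype alone, Benjamini-Hochberg adjustment over 14411 genes (threshold 0.05) and a prior count of 0.125. Each standard error is the size of the log2 fold change over the root of its F. DESeq2 1.42.0 and the other alternatives are in the closing section, and RSEM counts were rounded. The steps were tested on simulated data. At these depths 3 counts correspond to 0.0996 to 0.117 CPM, for counting error only. No 2 libraries of a genotype agreed within sampling noise.

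The genes, lists and motifs were chosen with earlier results of these data known, so no list was tested as a set and no p was adjusted over a list alone. Of the members, library values with errors are given for those at an unadjusted p under 0.05 and the extremes of each role, and the others more briefly. Of the other lists, up to 3 genes by smallest p are named, except 1 that is not reported here; Aacs, Acss2 and Mmab were named after their values were seen.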

Additional observations from a re-analysis of the deposited data

How the results depend on the processing

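Over all genes tested, edgeR called 117 genes, against 442 with DESeq2, 902 of 24406 with no filter on low counts (3.7%), 318 with the replicate block and 155 to 500 in fits without 1 library. Of the sterol members 0 were called, against 2 with no filter and 0 to 3 without 1 library; the 3 were called without PA replicate 1. Of the other pathway genes 0 were called, against 1 with DESeq2, 1 with no filter and 0 to 2 without 1 library. Members with both PA libraries above both WT libraries numbered 15 by TMM-scaled CPM, 5 in deposited TPM and 8 in TPM rescaled without mitochondrially encoded genes; the TPM settings were chosen after seeing the data. Without 1 library, medians of log2 fold changes ran from 0.48 to 0.87 for the early enzymes, 0.26 to 0.64 for the squalene and sterol steps, -0.035 to 0.26 for the regulators and -0.25 to 0.30 for trafficking. The regulators' median was 0.14 with library sizes only and 0.17 with no filter. Signs turned for Insig1 with library sizes only (-0.034), no filter (-0.0046), RSEM counts (-0.00016) and the replicate block (-0.12), and for Lbr with library sizes only (-0.020) and unstranded counts (-0.017). Without 1 library, 17 members kept their sign in all 4 fits and 11 did not: Mvd (-0.51 to 0.56), Sqle (-0.0025 to 0.76), Tm7sf2 (-0.30 to 0.083), Lbr (-0.037 to 0.090), Ebp (-0.44 to 0.49), Sc5d (-0.053 to 0.77), Insig1 (-0.76 to 0.51), Insig2 (-0.25 to 1.42), Stard4 (-0.51 to 0.068), Npc1 (-0.62 to 0.36) and Soat2 (-0.62 to 0.67). Of those that kept it, the fold change moved over 1.5 times from its value with all 4 libraries for Acat2 (0.35 to 0.98), Pmvk (0.19 to 1.21), Idi1 (0.39 to 0.95), Ggps1 (-0.34 to -0.014), Fdft1 (0.32 to 0.71), Lss (0.44 to 1.57), Cyp51 (0.15 to 0.42), Msmo1 (0.16 to 0.97), Nsdhl (0.28 to 0.79), Dhcr7 (0.23 to 1.05) and Npc2 (0.064 to 0.32). It moved less from that value for Hmgcs1 (0.48 to 0.87), Mvk (0.52 to 0.70), Fdps (0.69 to 1.01), Hsd17b7 (0.51 to 0.81), Srebf2 (0.40 to 0.62) and Scap (-0.38 to -0.20). The causes were not tested. Such fits have 1 mouse in a genotype, assumed to vary like the other genotype's. Replicate numbers are not known to pair the mice (correlation of same-numbered deviations -0.099 across 14411 genes), so the block is no paired design. With 2 mice per genotype, a gene left uncalled may still differ.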

Other observations

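RSEM's effective transcript length, which moves with the mix of isoforms assigned to a gene, was stable for most sterol genes but not for 3. For Lss it was 4153 and 3358 bases in PA, against 2891 and 4297 bases in WT, 1.49 times apart at the extremes. For Insig2 it was 1507 and 1859 bases in PA, against 1519 and 1438 bases in WT. For Ggps1 it was 1678 and 1733 bases in PA, against 2100 and 1940 bases in WT, shorter in both PA libraries. A longer assigned length lowers a gene's TPM at the same count, and Lss had 24 and 79.7 TPM in PA, against 28.1 and 24.9 TPM in WT, while its CPM did not overlap. These differences were not tested.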
